A study of Mus musculus with 6 samples.

Results

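The genes described here are 37 genes of the endoplasmic reticulum (ER) folding machinery and the unfolded protein response, out of 17556 genes in the deposited table of left ventricular RNA. They were taken by gene symbol from a list that was drawn up because 1 of them, Hyou1, separated the genotypes in these same ventricles. All 37 were found, and all 37 passed the filter on low counts that left 13817 genes. The genotype comparison therefore helped to choose the list, and its values for these genes are given as a description.

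RNAseq was performed on left ventricles of 6 related mice, 3 Cre positive and 3 Cre negative, collected 4 days post injury (dpi) at 6 to 10 weeks of age. Every mouse, controls included, carried floxed Yap (both alleles) and floxed Wwtr1 (one allele), underwent permanent ligation of the left anterior descending artery and received tamoxifen citrate in the diet from surgery onward. Cre positive mice also had a copy of MerCreMer, a tamoxifen inducible Cre, under the endogenous Periostin promoter, whereas Cre negative mice were wildtype at Periostin. Cre was therefore driven only where Periostin is active, which is mainly in myofibroblasts, while the RNA came from whole ventricles. In such bulk RNA, fewer cells of a type and less RNA per cell cannot be told apart. The question put to these genes is whether ER chaperones and stress genes differed between ventricles with and without Cre.

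Proteins that are secreted or placed in membranes fold inside the ER, where Hsp70 and Hsp90 family chaperones, lectin chaperones and disulfide isomerases handle them. When unfolded proteins build up, the membrane sensors IRE1 (encoded by Ern1), PERK (Eif2ak3) and ATF6 signal to the nucleus. IRE1 splices Xbp1 mRNA, PERK favors translation of Atf4, and ATF6 is cut to release a transcription factor. The genes switched on include chaperones, genes of ER-associated degradation, which returns misfolded proteins to the cytosol, and, under prolonged stress, Ddit3, which encodes CHOP. In the infarcted heart, myofibroblasts secrete large amounts of collagen and so make heavy use of this machinery.

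A known feature of many of these genes is the ER stress response element (ERSE), which reads CCAAT, then 9 bases of any kind, then CCACG. RefSeq sequences on GRCm38.p6, from 250 bases before to 50 bases after the start, were matched for 31 of the 37 genes. Atf6, Hyou1, Manf, Fkbp10, Derl1 and Sec61a1 were not matched. Both strands were searched. The ERSE was present in 9 of the 31 windows (29.0%), against 37 of the 27025 genes in the reference set (0.137%). Each match is shown with flanking bases because it is the sequence that many of the abundant chaperone genes below share. Capitals mark the element, and all sequences read 5′ to 3′ on the strand of the gene, so that an element on the opposite strand appears as CGTGG, 9 bases and ATTGG.
Hspa5, chr2:34772005-34772063, plus strand: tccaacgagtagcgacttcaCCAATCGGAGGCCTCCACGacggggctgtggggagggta
Hsp90b1, chr10:86705618-86705676, minus strand: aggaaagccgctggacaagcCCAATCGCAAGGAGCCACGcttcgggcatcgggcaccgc
Hsp90b1, chr10:86705513-86705571, minus strand: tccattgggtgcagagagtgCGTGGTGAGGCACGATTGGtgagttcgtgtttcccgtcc
Calr, chr8:84847055-84847113, minus strand: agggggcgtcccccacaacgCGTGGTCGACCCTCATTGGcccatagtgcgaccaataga
Canx, chr11:50325780-50325838, minus strand: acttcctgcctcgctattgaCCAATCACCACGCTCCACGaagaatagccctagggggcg
Pdia6, chr12:17266471-17266529, plus strand: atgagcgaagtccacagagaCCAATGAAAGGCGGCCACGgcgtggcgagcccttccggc
Creld2, chr15:88819500-88819558, plus strand: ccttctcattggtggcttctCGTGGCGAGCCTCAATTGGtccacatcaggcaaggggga
Dnajc3, chr14:118937807-118937865, plus strand: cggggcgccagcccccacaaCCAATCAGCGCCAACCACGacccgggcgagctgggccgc
Syvn1, chr19:6046512-6046570, plus strand: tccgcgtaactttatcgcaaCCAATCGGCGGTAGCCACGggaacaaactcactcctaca
Derl3, chr10:75893222-75893280, plus strand: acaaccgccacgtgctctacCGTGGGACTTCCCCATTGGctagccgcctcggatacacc

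In the Hspa5 promoter the printed element lay 65 to 47 bases before the start, and Hsp90b1 held 1 element on each strand. The related element ERSE-II, which reads ATTGG, 1 base of any kind and CCACG and thus shares the letters CCACG with the ERSE, was present in 0.0444% of all promoter windows. Among the members it was found in Herpud1, 52 to 42 bases before the start, and in Dnajb11 after the start. The C/EBP-ATF response element recognized by ATF4, searched as TGATGNAA with N for any base, was present in 4.51% of all windows, and in Herpud1, Chac1, Trib3 and Asns among the members. The unfolded protein response element, searched as TGACGTGG, was present in 0.714% of all windows and among the members in Vcp. The ERSE-II of Herpud1 and the ATF4 element of Asns are shown because these genes represent degradation and the amino acid response in the comparisons below.
Herpud1, ERSE-II, chr8:94386357-94386407, plus strand: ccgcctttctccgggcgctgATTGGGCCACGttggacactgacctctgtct
Asns, ATF4 element, chr6:7693210-7693252, minus strand: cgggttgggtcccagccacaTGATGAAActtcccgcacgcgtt

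Deposited estimated counts summed to between 13177888 and 14827579 per ventricle. Cre negative ventricle 1 stood apart from the rest. Its chi-square per gene, a statistic near 1 for libraries that differ by sampling only, was 44.7 to 69.2 against the other libraries, whereas all other pairs gave 8.12 to 17.2. In this library the 10 cardiomyocyte markers had a median 0.54 above the mean of the 6 ventricles on the log2 scale, and the 8 fibroblast markers a median of -0.47. Its medians were -0.71 for smooth muscle and 1.49 for neutrophil markers. The main edgeR counts and medians over the members, and each member's log2 fold change that it moved by over 1.5 times, are therefore also given without it. All 10 cardiomyocyte markers of the labelled left ventricle were present, with a summed level between 52323 and 69612 TPM. Of 59 markers searched over all cell types, 58 were found, and the T cell marker Trac was not. No marker found was at 0 in all ventricles. Yap1 did not separate the groups, with 1480 ± 64.3 normalized counts in Cre negative and 1509 ± 94.3 in Cre positive ventricles (mean ± SD, n = 3 each). Wwtr1 had 1561 ± 85.5 and 1611 ± 50.9, so that neither floxed gene had a lower mean with Cre. Postn had 12157, 24639 and 26862 normalized counts in Cre negative ventricles and 12682, 14240.2 and 13486 in Cre positive ones, where 1 allele carries MerCreMer. Cre negative ventricle 1, labelled wildtype at Periostin, thus lay below every Cre positive ventricle, and the log2 fold change of Postn was -0.66, or -0.94 without it.

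The ER genes covered a wide range of levels. In TPM, a level scaled by transcript length so that genes can be compared, the mean over 6 ventricles ran from 724 for Calr to 2.34 for Derl3, a 309-fold range, and 15 of the 37 genes exceeded 100. The most abundant were folding factors of the ER lumen. Calr, a calcium binding lectin chaperone, was at 724 ± 135 TPM (SD, n = 6), P4hb, a disulfide isomerase and collagen prolyl hydroxylase subunit, at 556 ± 84.3, and Hspa5, the ER Hsp70 also called BiP, at 410 ± 66.0. Ppib, Hsp90b1, Pdia3 and Vcp followed at 359.5, 352, 309 and 263 TPM. Sensors lay far lower, with Atf6 at 31.3 TPM, Eif2ak3 at 9.60 and Ern1 at 3.95. Hyou1 was in the middle of the range at 36.9 TPM, between 26.7 and 47.1.

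**Figure D1:**
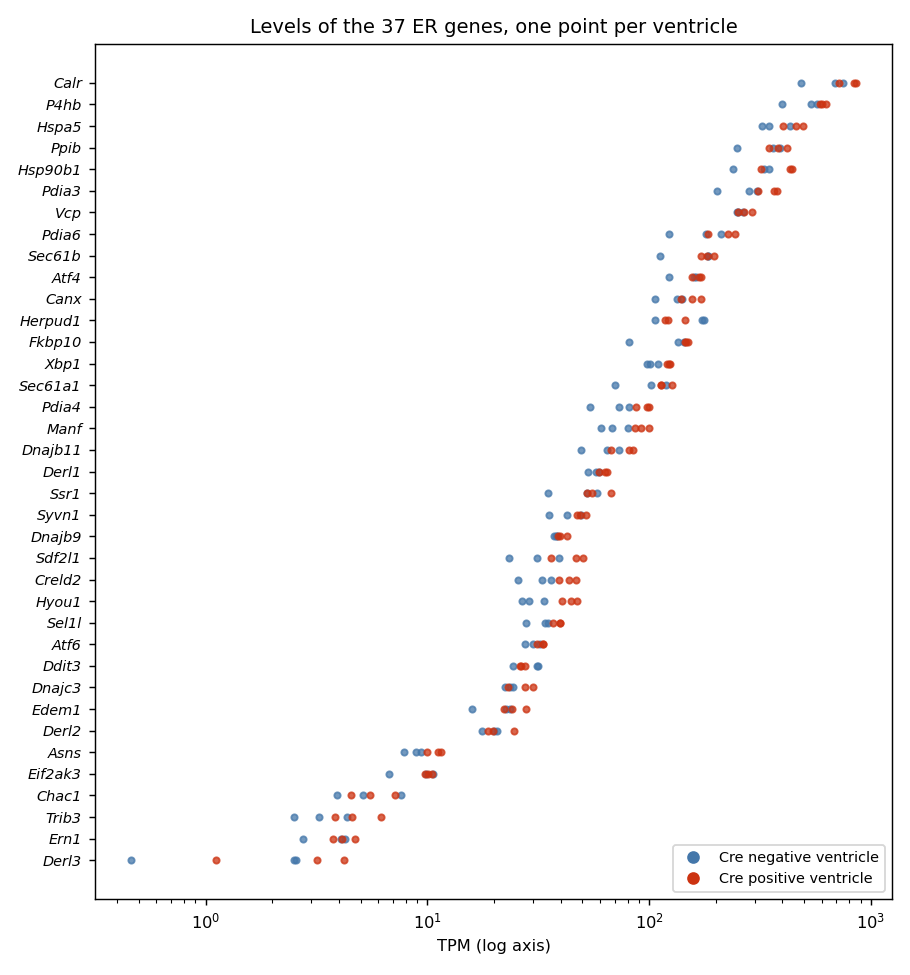
Level of each ER gene in TPM on a log axis, 1 point per ventricle, with Cre negative ventricles in blue and Cre positive ventricles in red, ordered by the mean. Calr is highest at a mean of 724 TPM and Derl3 lowest at 2.34, and for most genes the points of neighbors overlap.

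Neighbors in this order were mostly not distinguishable by their spread. Of 36 neighboring pairs, 2 had ranges that did not touch, Vcp above Pdia6 and Derl2 above Asns, and 9 pairs kept their order in all 6 ventricles. Calr was above P4hb and P4hb above Hspa5 in each ventricle, whereas Creld2 and Hyou1 kept the order of their means in 2 of 6. In the plot of levels by gene, the lowest point of each of the 6 most abundant genes is Cre negative ventricle 1.

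Between the genotypes, no ER gene passed the test. With edgeR's quasi-likelihood test and Benjamini-Hochberg adjustment over all genes, 0 of the 37 had an adjusted p under 0.05, with a smallest adjusted p of 0.714, and 1 of 13817 genes passed in all (0.00724%). At an unadjusted p under 0.05 there were 4 of the 37 (Hyou1, Manf, Creld2 and Pdia4), all with higher values in Cre positive ventricles, where 5.83% of all genes had such a p, 2.85% with higher and 2.98% with lower values. DESeq2 gave 0 of 37 with adjustment and 5 at an unadjusted p under 0.05, against 0.0285% and 4.8% of all genes. Without Cre negative ventricle 1, edgeR again gave an unadjusted p under 0.05 for Hyou1, Manf, Creld2 and Pdia4, where 6.59% of all genes had one. Because the list was chosen from this comparison, no inference is drawn from these counts.

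Most of the ER genes nevertheless had higher fitted values with Cre. The log2 fold change, Cre positive over Cre negative, was above 0 for 31 of 37 genes, against 51.2% of all genes, and its median was 0.16, against 0.006 over all genes. On the log2(TPM + 1) scale, where the median of all genes was itself 0.11, 35 were above 0, against 73.1% of all genes, and 31 above that median. In 9 genes every Cre positive ventricle had a higher normalized count than every Cre negative one, where 7.55% of all genes did so, and in 0 was the order the opposite, against 6.85%. Leaving out Hyou1 itself, 30 of 36 were above 0, 8 did not overlap, and the median was again 0.16 (26 of 36 and 0.07 without Cre negative ventricle 1). The list was drawn up through Hyou1 in these same ventricles, so leaving Hyou1 out does not undo the choice. Without Cre negative ventricle 1, 27 of 37 were above 0, against 50% of all genes, and the median dropped to 0.08. In that fit 9 members had all Cre positive values higher and 1 all lower, against 12.1% and 11.7% of all genes, and the first 9 are by construction the same genes. That ventricle held the lowest value of the 6 for 25 of the 37 genes, against 32.1% of all genes.

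**Figure D2:**
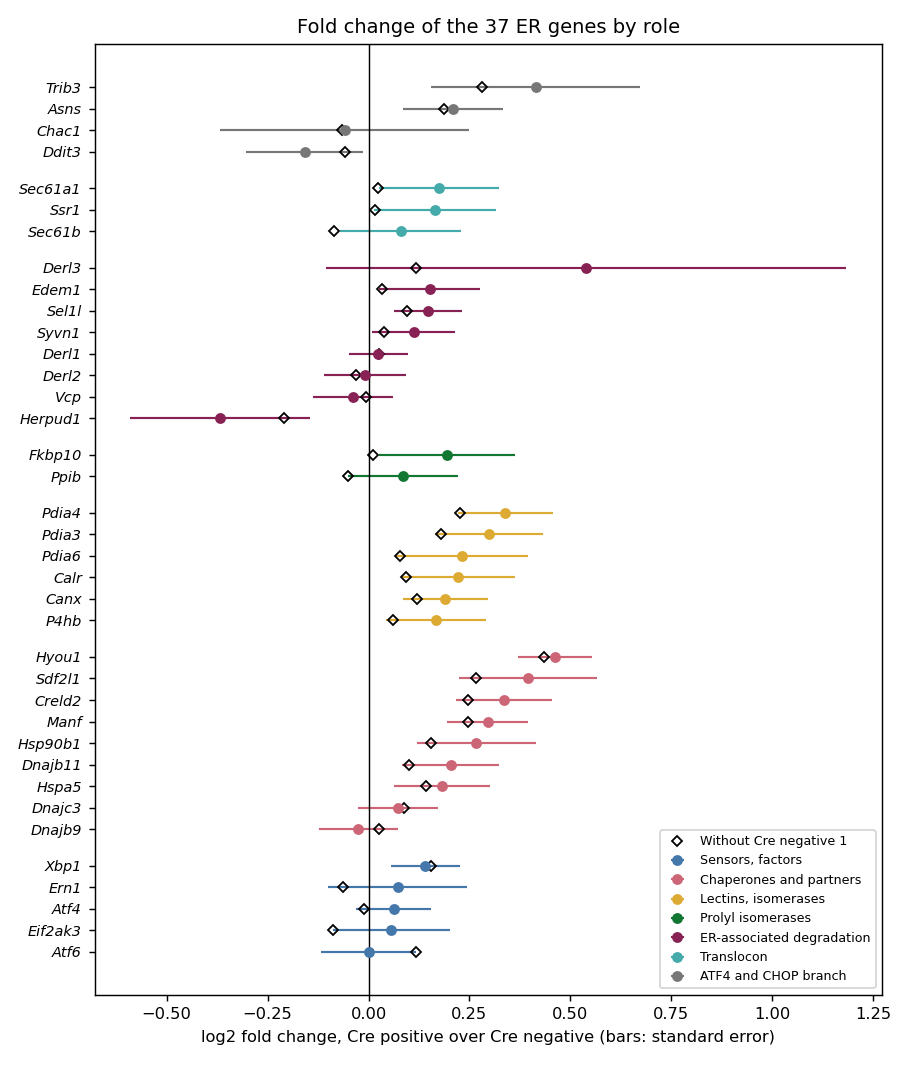
Log2 fold change, Cre positive over Cre negative, of each ER gene with its standard error (filled points and bars, edgeR, n = 3 ventricles per group), colored by role, and the same value without Cre negative ventricle 1 (open diamonds). Points lie above 0 for 31 of 37 genes, and most diamonds lie closer to 0, as for the median, which is 0.16 with and 0.08 without that ventricle.

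Among the sensors and transcription factors, differences were small. Atf4, the transcription factor translated when PERK is active, had 1713, 2019 and 1974 normalized counts in Cre negative ventricles 1, 2 and 3 and 1961, 2023 and 1976 in Cre positive ventricles. Its groups overlapped, with a log2 fold change of 0.06 (SE 0.09), or -0.01 without Cre negative ventricle 1. Xbp1, whose spliced form is the transcription factor of the IRE1 branch, had 1861, 1875 and 1713 normalized counts in Cre negative and 2115, 1936 and 1955 in Cre positive ventricles. All Cre positive values of Xbp1 lay above the Cre negative ones, and its log2 fold change was 0.14 (SE 0.09), or 0.15 without Cre negative ventricle 1. Gene counts do not separate the spliced and unspliced forms. The sensors Ern1, Eif2ak3 and Atf6 had log2 fold changes of 0.07, 0.06 and 0.00, with standard errors of 0.17, 0.15 and 0.12, and of -0.06, -0.09 and 0.12 without that ventricle. Over these 5 genes the median log2 fold change was 0.06, and without Cre negative ventricle 1 it was -0.01.

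Chaperones of the Hsp70 and Hsp90 families and their partners held the gene that led to the list. Hyou1, also called GRP170, is a large Hsp70 relative that exchanges the nucleotide of BiP, and it lies at chr9:44379490-44392369 on GRCm38.p6. Its normalized counts were 1023, 989.8 and 1156 in Cre negative ventricles and 1393, 1504 and 1466 in Cre positive ventricles. The lowest Cre positive ventricle was above the highest Cre negative one, the means differed by 1.38-fold, and the log2 fold change was 0.46 (SE 0.09). When each ventricle in turn was left out, this value stayed between 0.42 and 0.53, and it was 0.43 without Cre negative ventricle 1. Hyou1 was picked for its separation in these same ventricles, so this range is a description and not a check of the difference.

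Manf and Creld2, secreted ER stress proteins, had the same order of groups. Manf had 1137, 1148 and 1349.8 normalized counts in Cre negative and 1447, 1418 and 1594 in Cre positive ventricles, with a log2 fold change of 0.29 (SE 0.10). Creld2 had 289, 366 and 332 against 393, 403 and 450.1, with a log2 fold change of 0.34 (SE 0.12). Both kept a value of 0.25 without Cre negative ventricle 1.

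The abundant chaperones overlapped between groups. Hspa5 had 7023, 6752 and 8369 normalized counts in Cre negative and 7765, 8906 and 8447 in Cre positive ventricles. Cre negative ventricle 3 reached the level of the Cre positive ones, and the log2 fold change was 0.18 (SE 0.12). Hsp90b1, the ER Hsp90 also called GRP94, had 5632, 7006 and 7349 in Cre negative and 6759, 8590.45 and 8698 in Cre positive ventricles. Here Cre positive ventricle 1 lay within the Cre negative range, and the log2 fold change was 0.27 (SE 0.15), or 0.15 without Cre negative ventricle 1. Of the BiP cochaperones and partners, Sdf2l1 had a log2 fold change of 0.40 (SE 0.17), Dnajb11 of 0.20 (SE 0.12), Dnajc3 of 0.07 (SE 0.10) and Dnajb9 of -0.03 (SE 0.10). Without Cre negative ventricle 1 these values were 0.27, 0.10, 0.09 and 0.03. The 9 genes of this group had a median of 0.27, with 8 above 0, and without Cre negative ventricle 1 the median was 0.15, with 9 above 0.

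**Figure D3:**
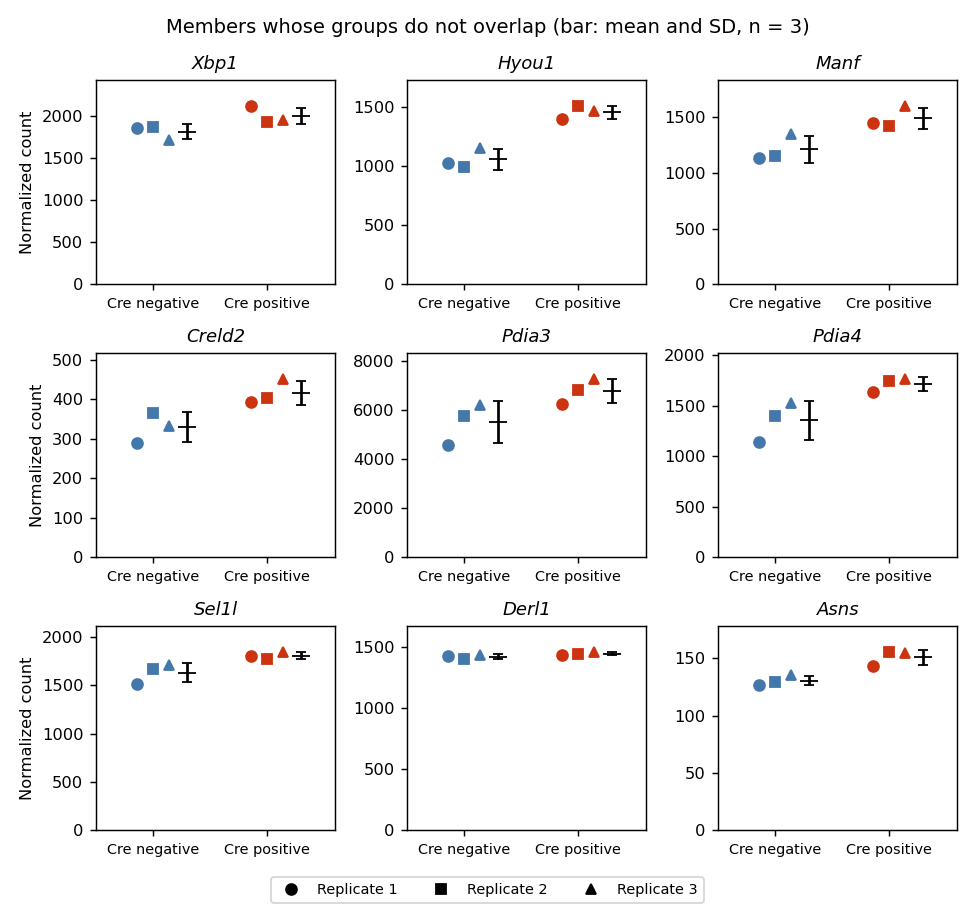
Normalized counts (y axis, from 0) of the 9 ER genes whose groups do not overlap, 1 symbol per ventricle by replicate number, with mean and SD (n = 3) beside each group. Hyou1 shows the widest separation, from 989.8 to 1156 in Cre negative and from 1393 to 1504 in Cre positive ventricles, whereas for Derl1 the nearest ventricles are at 1436 and 1437.

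All lectin chaperones and disulfide isomerases had log2 fold changes above 0 and their lowest value in Cre negative ventricle 1. Calr had 7913, 10152 and 10955 normalized counts in Cre negative and 10533, 11629 and 11685 in Cre positive ventricles. The groups overlapped at Cre positive ventricle 1, and the log2 fold change was 0.22 (SE 0.14), or 0.09 without Cre negative ventricle 1. P4hb had 8564, 10463 and 11125 in Cre negative and 11657, 11273 and 10921.5 in Cre positive ventricles, with a log2 fold change of 0.17 (SE 0.12), or 0.06 without that ventricle. Its relatives Pdia3, which works with the lectin chaperones on glycoproteins, and Pdia4 were among the genes whose groups did not overlap. Pdia3 had 4591, 5746 and 6222 normalized counts in Cre negative and 6273, 6844 and 7256 in Cre positive ventricles, with a log2 fold change of 0.30 (SE 0.13). Pdia4 had 1144, 1393 and 1527 against 1635, 1747 and 1758, with a log2 fold change of 0.34 (SE 0.12). Without Cre negative ventricle 1 these values were 0.18 and 0.23. Pdia6 and Canx, the membrane bound lectin chaperone, had log2 fold changes of 0.23 (SE 0.16) and 0.19 (SE 0.11), and of 0.08 and 0.12 without it. The group median of 0.23 became 0.11 without that ventricle, with 6 of 6 genes above 0 in both fits.

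The prolyl isomerases, which turn proline bonds and include factors of collagen folding, overlapped between groups. Ppib, cyclophilin B, had 1916, 2513 and 2688 normalized counts in Cre negative and 2385, 2665 and 2503 in Cre positive ventricles. Fkbp10 had 1795, 2860.5 and 2672 against 2902, 2655.5 and 2833. In both genes Cre negative ventricle 1 was the low one, and without it the log2 fold change went from 0.09 to -0.05 for Ppib and from 0.20 to 0.01 for Fkbp10.

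Genes of ER-associated degradation had log2 fold changes on both sides of 0. Vcp, the ATPase that pulls proteins out of the ER, had 7099, 6435 and 6763 normalized counts in Cre negative and 6812, 6833 and 6118 in Cre positive ventricles, with a log2 fold change of -0.04 (SE 0.10), or -0.01 without Cre negative ventricle 1. Herpud1, a stress induced adaptor of the degradation complex, had the lowest log2 fold change of all members, -0.37 (SE 0.22), which was -0.21 without Cre negative ventricle 1. Its normalized counts were 2738, 2531 and 1510.1 in Cre negative and 2066, 1602 and 1586 in Cre positive ventricles, so that Cre negative ventricles 1 and 2 were high and ventricle 3 was the lowest of all 6. Sel1l, the scaffold of the Hrd1 ubiquitin ligase, had 1516, 1667 and 1703 against 1804, 1773 and 1837, and its groups did not overlap. Its log2 fold change was 0.15 (SE 0.08), or 0.10 without Cre negative ventricle 1. Derl1, a channel protein, had 1434, 1403 and 1436 against 1437, 1450.05 and 1459.5, so that the nearest ventricles of both groups were almost level, with a log2 fold change of 0.02 (SE 0.07).

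Derl3 had the highest log2 fold change of all members, 0.54, with a standard error of 0.64. Without Cre negative ventricle 1 it was 0.12, and Hyou1 was then the highest at 0.43. The Derl3 value rested on few counts, 4.70, 25.5 and 20.4 normalized counts in Cre negative and 30.9, 9.23 and 35.1 in Cre positive ventricles, and the groups overlapped widely. The summed plasma cell markers (5 of 6 genes tested) stood at 32.2, 89.4 and 35.7 TPM in Cre negative and 68.3, 45.6 and 76.8 TPM in Cre positive ventricles. Of these sums Sdc1 alone made 18.8, 31.8 and 30.85 TPM in Cre negative and 37.1, 39.35 and 35 TPM in Cre positive ventricles. Jchain made 9.46, 43.9 and 1.41 TPM and 20.7, 2.39 and 30.2 TPM. The part of plasma cells in the Derl3 values was not tested. Syvn1, Edem1 and Derl2 had log2 fold changes of 0.11, 0.15 and -0.01, and of 0.04, 0.03 and -0.03 without that ventricle. The 8 genes of this group had a median of 0.07, with 5 above 0, and a median of 0.03, again with 5 above 0, without it.

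The translocon genes, whose products pass new proteins into the ER, all had their lowest value in Cre negative ventricle 1. Sec61b had 458, 674 and 675 normalized counts in Cre negative and 623, 654 and 635 in Cre positive ventricles. Sec61a1, the pore, had 1831, 2386 and 2769 against 2644, 2739 and 2502. The groups overlapped in both genes, and the log2 fold changes of 0.08 and 0.17 became -0.09 and 0.02 without Cre negative ventricle 1. Ssr1 had 0.16 and 0.02 in the same fits.

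The ATF4 and CHOP branch was divided. Ddit3, which encodes CHOP, had 253, 229.5 and 183 normalized counts in Cre negative and 205, 191 and 199 in Cre positive ventricles, with a log2 fold change of -0.16 (SE 0.14), or -0.06 without Cre negative ventricle 1. Asns, asparagine synthetase, had 127, 129 and 135 against 143, 155 and 154. The groups of Asns did not overlap, and its log2 fold change was 0.21 (SE 0.12), or 0.19 without Cre negative ventricle 1. Trib3, a pseudokinase induced by CHOP, had a log2 fold change of 0.41 (SE 0.26) and Chac1, a glutathione degrading enzyme, of -0.06 (SE 0.31). The 4 genes had a median of 0.08, with 2 above 0, and a median of 0.06, again with 2 above 0, without that ventricle.

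The medians varied with role, while the single highest and lowest values, those of Derl3 and Herpud1, belonged to genes of degradation. The 15 chaperones, lectins and disulfide isomerases together had 14 values above 0 and a median log2 fold change of 0.23, and without Cre negative ventricle 1 all 15 were above 0 with a median of 0.14. The other 22 genes, prolyl isomerases included, had 17 above 0 and a median of 0.08, and without that ventricle 12 above 0 and a median of 0.01. The difference between these groups of genes was not tested. Among the 31 matched members, the 9 with an ERSE had a median of 0.22 and the 22 without it a median of 0.11, and without Cre negative ventricle 1 these medians were 0.12 and 0.02. Outside the list, 9 tested genes held an ERSE, of which 6 were above 0, with a median of 0.10. Without Ero1lb, a gene of the same pathways, 5 of 8 were above 0, with a median of 0.05, beside 51.2% of all genes above 0. Without Cre negative ventricle 1 the counts stayed at 6 of 9 and 5 of 8, both with a median of 0.08, beside 50% of all genes.

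Within the Cre negative group the spread was larger with ventricle 1 than without it. The median coefficient of variation of the 37 genes was 14.3% in Cre negative and 6.36% in Cre positive ventricles, against 13.3% and 9.02% over all genes, and 32 of the 37 varied more in Cre negative ventricles. A comparison added after seeing the data used Cre negative ventricles 2 and 3 alone. The median was then 5.63% for the 37 genes and 6.31% over all genes. In it 18 of the 37 varied more than in Cre positive ventricles, against 5020 of the 13817 genes tested. A spread over 2 ventricles is not like for like with one over 3, so these values do not isolate the part of ventricle 1. By ventricle, the median log2 deviation of the members from their own mean was -0.31 in Cre negative ventricle 1, -0.02 in ventricle 2 and 0.02 in ventricle 3, and 0.03, 0.13 and 0.04 in the Cre positive ventricles. The Hsp70 and Hsp90 family chaperones and their partners were at -0.27, -0.09 and 0.01 in Cre negative ventricles and at -0.01, 0.18 and 0.24 in Cre positive ones, and the lectin chaperones and disulfide isomerases at -0.40, -0.06 and 0.05 and at 0.03, 0.18 and 0.17.

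**Figure D4:**
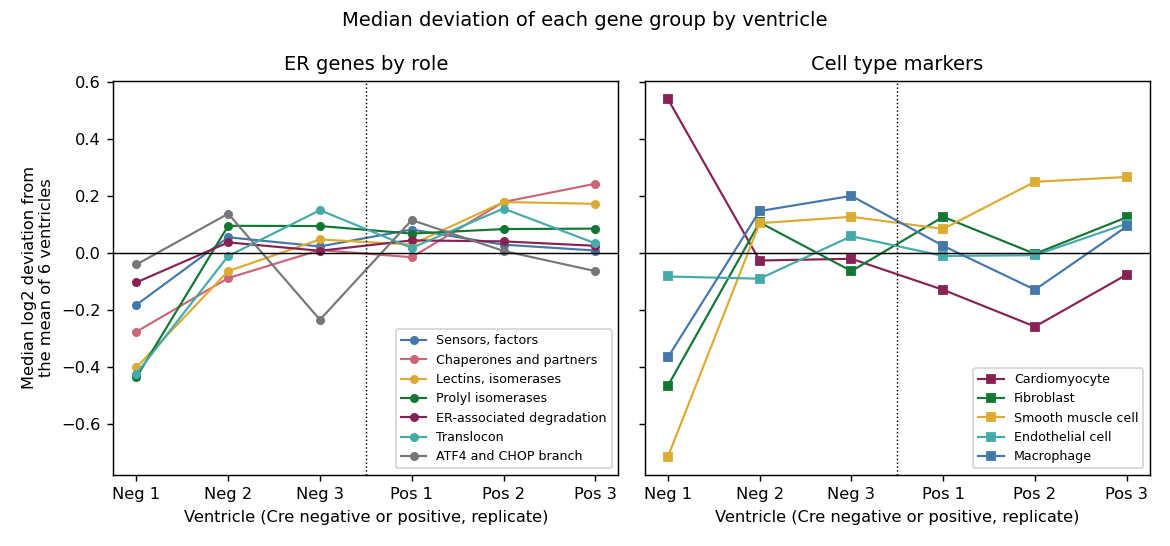
Median log2 deviation from the mean of the 6 ventricles (y axis) for the ER genes by role (left) and for cell type markers (right) in each ventricle (x axis). Cre negative ventricle 1 is below 0 for each role, at -0.40 for the lectin chaperones and disulfide isomerases, as well as for fibroblast markers (-0.47), and high for cardiomyocyte markers (0.54).

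Cell type markers differed between the ventricles as well, though with edgeR no marker had an adjusted p under 0.05 between the genotypes. All 10 cardiomyocyte markers had log2 fold changes below 0, with a median of -0.31 (-0.13 without Cre negative ventricle 1) and 6 whose groups did not overlap, against 6.85% of all genes. Their summed level was 58091 to 69612 TPM in Cre negative and 52323 to 56700 TPM in Cre positive ventricles. Of the 8 fibroblast markers 6 were above 0, with a median of 0.11 (0.09 without that ventricle), and their summed level was 4953, 8263 and 7571 TPM in Cre negative and 8828, 7882 and 8909 TPM in Cre positive ventricles. These sums include Postn, of which 1 allele carries MerCreMer in Cre positive mice. Postn made 452, 1015 and 1112 TPM in Cre negative and 526, 636 and 586 TPM in Cre positive ventricles. All 5 smooth muscle markers were above 0, with a median of 0.33 (0.10 without that ventricle), and their summed level was 383 to 886 TPM in Cre negative and 865 to 999 TPM in Cre positive ventricles. The direction turned without that ventricle for macrophage markers, with a median of 0.09 that became -0.18, and for neutrophil markers, with a median of -0.54 that became 0.53, and the median of plasma cell markers went from 0.20 to -0.0016. Medians with and without that ventricle were 0.43 and 0.18 for B cell, 0.61 and 0.43 for T cell, and 0.04 and 0.01 for endothelial markers. The B cell markers had a median deviation of -1.69 in Cre positive ventricle 2 and 1.66 in Cre positive ventricle 3. The summed level of the 37 ER genes was 3605, 4699 and 4955 TPM in Cre negative and 4918, 5666 and 5407 TPM in Cre positive ventricles. On log2(TPM + 1), 73.1% of all genes were above 0, 15% had all Cre positive values higher and 2.44% all lower. Higher TPM values with Cre were thus not particular to the ER genes. The part of tissue composition in the ER gene values was not tested.

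Other genes of the same pathways also had more values above 0 than below, with a smaller median. Of 104 such genes, 103 were tested, and 0 had an adjusted p under 0.05 in edgeR or DESeq2. With edgeR, 9 were higher and 1 lower at an unadjusted p under 0.05, against 2.85% and 2.98% of all genes, and with DESeq2 there were 9 in all, against 4.8%. Log2 fold changes were above 0 for 73 and below 0 for 30, with a median of 0.08, or 0.03 without Cre negative ventricle 1. In 25 the Cre positive ventricles were all higher, against 7.55% of all genes, and in 4 all lower, against 6.85%. Of the 28 other chaperones and oxidoreductases 25 were above 0 (19 without Cre negative ventricle 1), and of the 14 other degradation genes 6 were (8 without it), beside 51.2% and 50% of all genes. Between them lay the translocon, signal peptidase and oligosaccharyltransferase genes with 16 of 24 (14 without it). Retrieval receptors and ER stress signalling had 15 of 19 (14 without it), and the other ATF4 targets 11 of 18 (10 without it). The difference between these lists was not tested.

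Of these, the 8 genes with the largest log2 fold changes in size were Slc7a11, Cth, Ero1lb, Serpinh1, Mthfd2, Stt3a, Creb3l1 and Sesn2. Serpinh1, the collagen chaperone HSP47, was the most abundant, with 9948, 15345 and 16149.6 normalized counts in Cre negative and 17852, 18028 and 18063 in Cre positive ventricles. Its groups did not overlap, and its log2 fold change of 0.38 (SE 0.18) was 0.19 without Cre negative ventricle 1. Creb3l1, an ER membrane transcription factor known for its role in collagen secretion, had 1260.1, 1449.87 and 1445 against 1962, 1657 and 1735, a log2 fold change of 0.37 (SE 0.10). Stt3a, a catalytic subunit of the oligosaccharyltransferase, had 1160.19, 1525 and 1566 against 1790.35, 2008 and 1720.18, a log2 fold change of 0.38 (SE 0.13), or 0.25 without Cre negative ventricle 1. Ero1lb, which reoxidizes disulfide isomerases and also holds an ERSE, had 101.1, 108 and 118 against 126, 150.5 and 152, a log2 fold change of 0.39 (SE 0.15). The groups of Creb3l1, Stt3a and Ero1lb did not overlap either.

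The remaining 4 belong to the targets of ATF4. Slc7a11, the cystine transporter, had 11.8, 8.83 and 13.6 normalized counts in Cre negative and 13.9, 19.4 and 20.5 in Cre positive ventricles, a log2 fold change of 0.65 (SE 0.35). Sesn2, a stress induced regulator of growth, had 106, 113 and 123 against 139, 134 and 167, a log2 fold change of 0.36 (SE 0.15). Both had groups that did not overlap. Mthfd2, a mitochondrial folate enzyme, had 136, 146 and 158 against 219.9, 207 and 146, a log2 fold change of 0.38 (SE 0.18) with groups that overlapped. Cth, which makes cysteine, had 30.6, 17.7 and 9.71 against 13.9, 10.2 and 14.6, and its log2 fold change of -0.56 was -0.09 without Cre negative ventricle 1.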

How the data were processed

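Left ventricular RNA of 3 Cre positive and 3 Cre negative mice was extracted with TRIzol and made into libraries by BGI Americas, per the labels. The submitters' processing notes name Bowtie2 2.2.5, RSEM 1.2.12 and GRCm38.p6. The authors deposited estimated counts without normalization, of which 11.46% were not whole, with FPKM and TPM values scaled to transcript length and library size; FPKM was not used. A deposited DESeq2 comparison of the genotypes (log2 fold change, p-value and q-value) was not used.

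Rounded counts were compared with edgeR 4.0.16 (R 4.3.3): filterByExpr (minimum count 10, minimum total 15), TMM scaling and the quasi-likelihood test without covariates, with Benjamini-Hochberg adjustment over 13817 genes. Normalized counts are TMM scaled to the mean library size of 14264187. DESeq2 1.42.0 and limma 3.58.1 on log2(TPM + 1) or log2(TPM + 0.1) were alternatives, as were other filters, a replicate block and leaving out each ventricle. The edgeR fit was tested on simulated data. TPM served for levels between genes. With 3 ventricles per group, p-values measure the spread between these mice only, and counts bear counting error as well.

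The members and lists were chosen with earlier results of these data known. Values in every ventricle are given for Hyou1, the 2 members of each role with the highest mean TPM, members whose groups do not overlap, the highest and lowest log2 fold change, and the 8 other pathway genes with the largest log2 fold change in size. Of the pathway genes, 4 were found by an older symbol. Promoter windows and positions came from RefSeq on GRCm38.p6.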

Additional observations from a re-analysis of the deposited data

How the results depend on the processing

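No ER gene and no other pathway gene had an adjusted p under 0.05 in any of the 13 alternatives, and the smallest adjusted p of a member was 0.0951 (DESeq2, Hyou1). The median member log2 fold change stayed above 0 in each alternative. With a ventricle left out it lay between 0.08 (without Cre negative ventricle 1) and 0.23 (without Cre negative ventricle 3). On the scales of log2(TPM + 1) and log2(TPM + 0.1) it was 0.28 and 0.29. On the first of these the median of all genes was 0.11, and 31 members lay above that median, against 30 in the main comparison. The number of members whose groups do not overlap was 9, 8 with DESeq2 size factors and 12 on TPM, against 14.4%, 14.4% and 17.4% of all genes in either direction. It was between 10 and 20 when a ventricle was left out (18 without Cre positive ventricle 1 and 20 without Cre negative ventricle 3, against 28.0% and 28.7% of all genes), since fewer ventricles separate more easily. The sign was the same in every fit for 26 members and changed in some fit for 11. Atf6 was at -0.0097 with DESeq2 size factors in edgeR and at -0.0094 with DESeq2. On log2(TPM + 1), Dnajb9 was at 0.090, Derl2 at 0.099, Vcp at 0.078 and Chac1 at 0.065, and with the pseudocount of 0.1 at 0.092, 0.10, 0.079 and 0.079. Leaving out each ventricle gave ranges of -0.083 to 0.12 for Atf6, -0.11 to 0.041 for Derl2, -0.096 to 0.027 for Dnajb9, -0.29 to 0.20 for Chac1, -0.011 to 0.15 for Dnajc3, -0.073 to 0.010 for Vcp, -0.063 to 0.16 for Ern1, -0.087 to 0.16 for Eif2ak3, -0.011 to 0.11 for Atf4, -0.051 to 0.18 for Ppib and -0.086 to 0.17 for Sec61b. The cause of these changes of sign was not tested. The labels do not say that equal replicate numbers share a litter or day, and deviations of ventricles with the same number correlated at 0.35, 0.07 and -0.03 across genes. With a replicate block the median member log2 fold change was 0.17, 0 members and 0 of all genes had an adjusted p under 0.05, and 7 members had an unadjusted p under 0.05, against 8.81% of all genes. Depth limits Derl3, with at least 4 counts in each ventricle, more than the other members.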
